A study of Mus musculus with 36 samples.

Results

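Cytosolic ribosomal protein genes were followed through 6 h of sleep deprivation in brain and liver of 3 inbred mouse strains. They were chosen by symbol: every gene whose name starts with Rpl or Rps and a digit, together with Rplp0, Rplp1, Rplp2 and Rpsa, without the Rps6k kinases and the processed pseudogenes. A gene entered if at least 1 probe set of the array, that is a group of short probes designed for 1 transcript, was annotated to it alone. The rule gave 50 genes on 106 probe sets, out of 18193 named genes and 45037 probe sets. They were 20 proteins of the large subunit, 21 of the small subunit, the stalk genes Rplp0 and Rplp2, 6 paralogues (Rpl3l, Rpl7l1, Rpl22l1, Rpl39l, Rps27l and Rps4l) and Rps19bp1, which binds Rps19 but is no ribosomal protein and shares only the start of the name. Of the genes, 24 had several probe sets, and each was represented in a tissue by the one with the highest mean there. A further 110 probe sets list a ribosomal protein gene beside other genes, some of them pseudogenes, and were not assigned to any member. Of the 50 representative probe sets, 13 carry the suffix x and 2 the suffix s, with which the array maker marks probes that can bind other transcripts, and the levels of genes with near-identical pseudogenes are uncertain.

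The mice were males of C57BL/6J, AKR/J and DBA/2J aged 12 to 13 weeks. Sleep-deprived mice were held awake during the first 6 h of the light phase, and home-cage controls were left undisturbed. All were killed at Zeitgeber time (ZT) 6, which counts hours from lights on. Whole brain and liver were taken, and each array held RNA pooled from 3 mice, with 3 arrays in each of the 12 groups (36 arrays). P-values therefore measure the spread between pools. AKR/J control arrays 2 and 3 of both tissues carry ZT 0 in the source name and ZT 6 in the title, and were kept as ZT 6 controls.

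Ribosomes translate every cellular mRNA, and each ribosome holds a copy of nearly every ribosomal protein in its small or large subunit. The mRNAs of these proteins are abundant in all tissues and belong to the 5′ TOP class, whose transcripts begin with a cytosine and a run of pyrimidines. Through this run their translation, more than their mRNA level, follows the kinase mTORC1, which also acts through S6 kinase on Rps6.

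The start of transcription of 5 members whose array signal differed between strains in both tissues is shown, because the 5′ TOP run lies there. The sequences are RefSeq's for the mouse build GRCm38.p6, 30 bases each, 15 of them before the annotated first base. Capitals mark the run of C and T that contains that base.
Rps6 (chr4:86857353-86857382, minus strand): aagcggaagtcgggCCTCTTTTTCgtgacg
Rpl14 (chr9:120571502-120571531, plus strand): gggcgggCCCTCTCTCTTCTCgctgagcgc
Rps2 (chr17:24720048-24720077, plus strand): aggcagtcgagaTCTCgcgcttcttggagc
Rpsa (chr9:120127751-120127780, plus strand): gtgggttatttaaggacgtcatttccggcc
Rpl41 (chr10:128549154-128549183, minus strand): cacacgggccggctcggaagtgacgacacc
The run was 10 bases long in Rps6, 14 in Rpl14 and 4 in Rps2. In Rpsa and Rpl41 the annotated first base was not a pyrimidine. Of the 50 members 44 had an entry in the promoter table, and 13 of these (29.5%) had a run of at least 5 bases at the annotated start, against 11.8% of all 27025 genes in the table. The motif CCGGAAG, searched on both strands of the 300 bases from 250 before to 50 after the start, was found in 21 members (47.7%) and in 9.93% of all genes. These are matches of letters at annotated starts, and no binding or start-site use was measured here.

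Brain arrays correlated at 0.978 to 0.997 and liver arrays at 0.980 to 0.996. Defining markers went with the labelled tissues: Snap25, a synaptic gene, was at 12.58 to 12.93 in brain and 2.51 to 2.76 in liver, and Alb, the albumin gene, at 14.58 to 14.71 in liver and 3.37 to 4.46 in brain (log2 expression). Some arrays stood apart before any comparison. The sleep-deprived brain arrays C57BL/6J 1, AKR/J 3 and DBA/2J 2 had a narrower spread of values, with SDs of 1.90 to 1.96 over probe sets against 1.97 to 2.05 on the other 15. Beta-actin, whose 3′ to 5′ difference grows as RNA degrades, differed most on C57BL/6J control 2 and DBA/2J control 3 in brain and on DBA/2J control 1 in liver. Counts are given with and without these 5 brain arrays and 1 liver array. All values are log2 expression from RMA, an array method that brings the arrays to a common distribution, so a change shared by most genes cannot be seen. Levels of the members were not tested between genes or between tissues, and are given only to describe the probe sets.

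The first question was whether sleep loss moved the mRNAs of the ribosome in the brain. None of the 50 members changed past the threshold (limma, Benjamini-Hochberg adjusted p under 0.05 over 45037 probe sets), where 1.73% of all probe sets passed. The mean change over strains, sleep-deprived minus control, ran from -0.13 to 0.19 on the log2 scale with a median of -0.03, against 0.00 for all probe sets. Of the members 41 had a negative sign, but 2 had an unadjusted p under 0.05, against 12.1% of all probe sets. The standard errors were 0.04 to 0.11, and for 46 of the 50 members the whole 95% interval of the change lay within 0.3 of 0. Of the 50, 3 had a mean below the brain median of all probe sets (4.77), and changes near the lowest values are compressed. Others lay far below the members' median of 10.98, among them Rps6 (6.15), Rpl14 (6.51) and Rps25 (5.90). Whether such probe sets read the main transcript of their gene was not tested. In a whole organ, fewer cells of a type and less RNA per cell cannot be told apart.

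**Figure D1:**
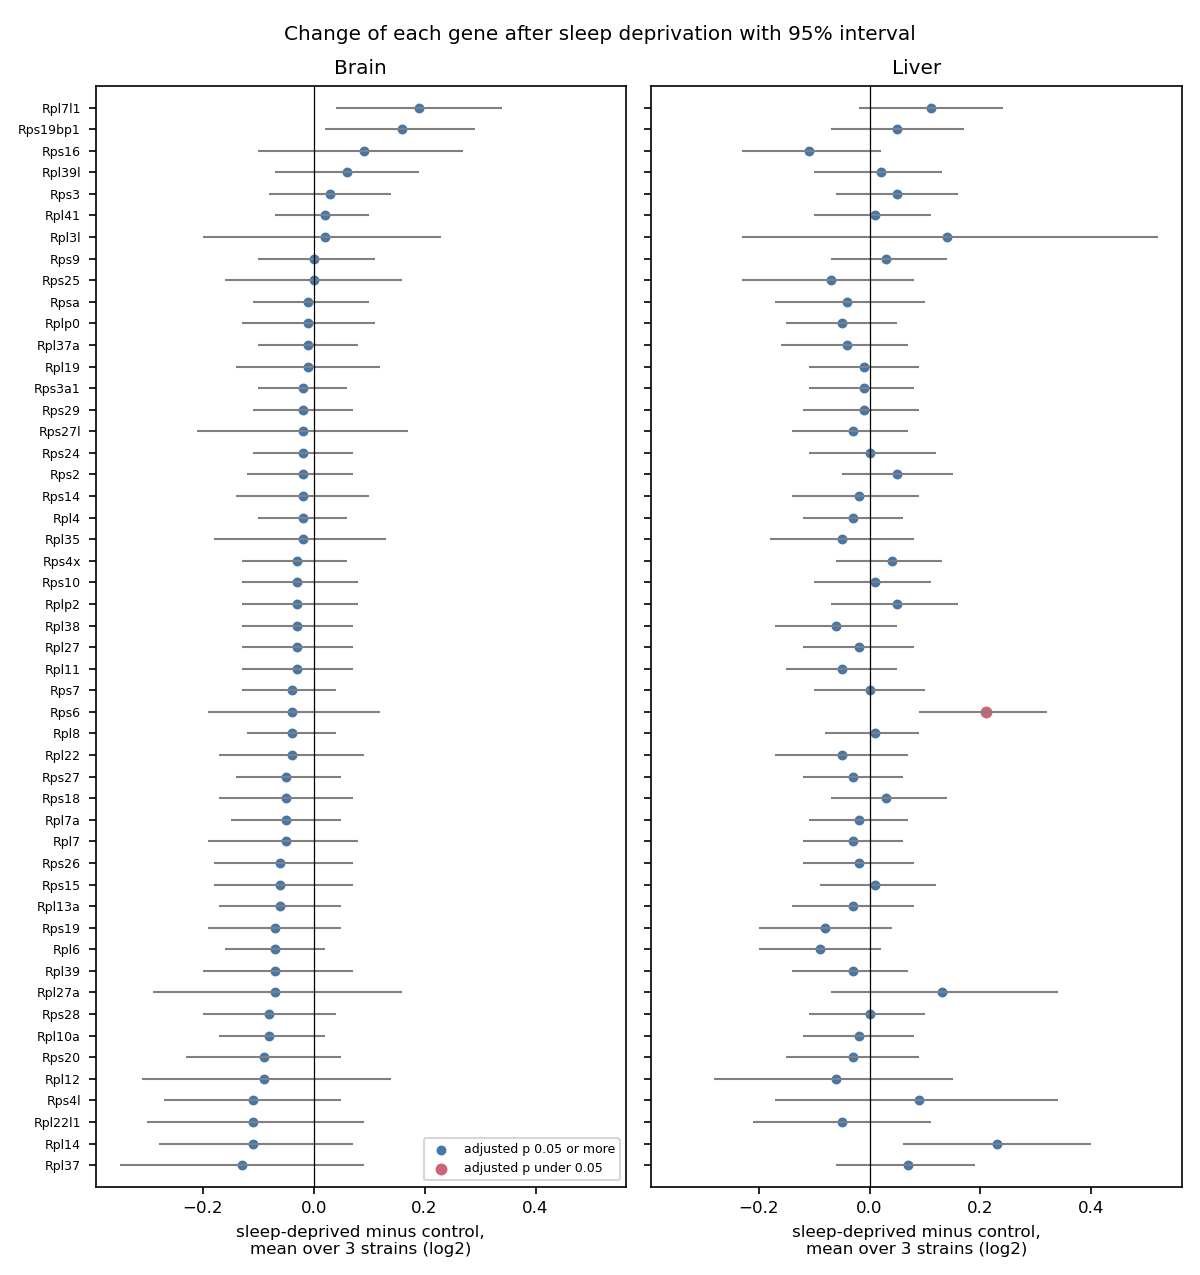
Change of each of the 50 genes after sleep deprivation, as sleep-deprived minus control averaged over 3 strains (x axis, log2), in brain (left) and liver (right), with genes on the y axis ordered by the change in brain. Points are limma estimates and lines their 95% intervals; all brain points lie between -0.13 and 0.19, and the 1 gene past the threshold is Rps6 in liver.

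The brain members with the largest differences are given next, though none passed. Rpl7l1, a paralogue of the large subunit protein gene Rpl7, was 0.19 ± 0.07 higher (limma estimate ± SE, adjusted p = 0.2467). In AKR/J its 3 controls measured 7.26, 7.03 and 7.12 and its 3 sleep-deprived arrays 7.40, 7.50 and 7.27. In DBA/2J the controls measured 7.08, 6.92 and 6.81 and the sleep-deprived arrays 7.27, 7.00 and 7.23. The groups did not overlap in AKR/J, while in DBA/2J 1 sleep-deprived pool lay below the highest control. In C57BL/6J, controls of 7.47, 7.02 and 7.21 overlapped widely with sleep-deprived values of 7.16, 7.34 and 7.50. The other Rpl7l1 probe sets gave 0.34 (adjusted p = 0.1310) and 0.01 (adjusted p = 0.9705), so they disagreed. Rps19bp1 was 0.16 ± 0.06 higher (adjusted p = 0.3083). The difference was 0.24 for AKR/J, 0.24 for DBA/2J and -0.01 for C57BL/6J. In DBA/2J the sleep-deprived pools (7.73, 7.76 and 7.68) lay above all controls (7.56, 7.33 and 7.56). Rps16 followed with 0.09 ± 0.09 on a probe set that measured 3.00 to 3.78 over the 18 brain arrays. On the lower side were Rpl37 (-0.13 ± 0.10), Rpl14 (-0.11 ± 0.08), Rpl22l1 (-0.11 ± 0.09) and Rps4l (-0.11 ± 0.08), with adjusted p of 0.6332 to 0.7465. None of these differences was larger than the spread between pools allowed the test to call.

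Without the 5 brain arrays that stand apart, Rps19bp1 alone passed (0.24, adjusted p = 0.0380), the members' median was 0.02, and Rpl37 and Rpl22l1 turned to 0.09 and 0.07. Under quantile normalization Rpl7l1 alone passed (0.21, adjusted p = 0.0310).

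Within single strains no member passed in brain either (limma), and 1 in each strain had an unadjusted p under 0.05. The background was 0.0377% of probe sets for C57BL/6J, 0.300% for AKR/J and 0.104% for DBA/2J, so few calls of any gene were made with 3 arrays against 3. The members' medians were -0.04, 0.00 and -0.05. In C57BL/6J the largest differences were Rpl14 (-0.42 ± 0.15), Rpl37 (-0.28 ± 0.18) and Rps6 (-0.21 ± 0.13) below controls, and Rpl39l (0.18 ± 0.11), Rpl7l1 (0.10 ± 0.12) and Rplp0 (0.07 ± 0.10) above. In AKR/J they were Rps25 (-0.26 ± 0.13), Rpl12 (-0.19 ± 0.18), and Rpl7 and Rpl19 (both -0.10 ± 0.11) below, and Rpl7l1 (0.25 ± 0.12), Rps19bp1 (0.24 ± 0.11) and Rps6 (0.21 ± 0.13) above. In DBA/2J they were Rps4l (-0.25 ± 0.13), Rpl37 (-0.23 ± 0.18) and Rps20 (-0.16 ± 0.11) below, and Rps19bp1 (0.24 ± 0.11), Rpl7l1 (0.23 ± 0.12) and Rps25 (0.22 ± 0.13) above. Rps25 and Rps6 thus had opposite signs in AKR/J and in another strain. The strain by sleep deprivation interaction (limma F test) called no member and 0% of all probe sets, and 0 members had an unadjusted p under 0.05 there.

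The set as a whole also moved from array to array. For each array, the median over members of the deviation from each gene's tissue mean was taken. In AKR/J sleep-deprived brain these medians were 0.14, 0.09 and -0.14, with 41 of 50 members above their mean on array 1 and 36 below it on array 3, 1 of the arrays of narrow spread. Sleep-deprived brain arrays lay at -0.06, -0.02 and -0.02 in C57BL/6J and at 0.00, -0.10 and 0.01 in DBA/2J, and controls of all strains lay between -0.04 and 0.06. On DBA/2J sleep-deprived array 2, which has a narrow spread, the 1073 probe sets with a mean of 10 or more were shifted by -0.11, much as the members were by -0.10. On AKR/J array 3 those probe sets were at -0.03 while the members were at -0.14. In liver, C57BL/6J controls lay at 0.10, -0.08 and 0.00 and DBA/2J controls at 0.11, 0.01 and -0.09, a spread wider than that of any sleep-deprived liver group. The part of array quality in these shifts was not tested.

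**Figure D2:**
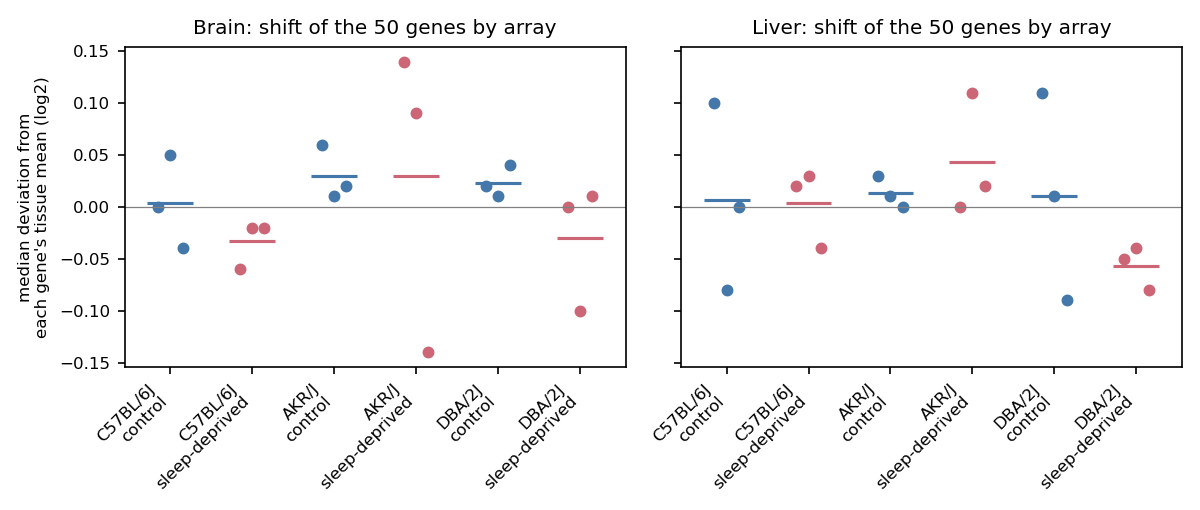
Median deviation of the 50 genes from each gene's tissue mean (y axis, log2) for every array, in brain (left) and liver (right), by strain and condition (x axis). Points are arrays and bars group means; AKR/J sleep-deprived brain arrays run from -0.14 to 0.14, and the 3 DBA/2J sleep-deprived liver arrays lie between -0.08 and -0.04.

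In liver, sleep deprivation changed 1 of the 50 members, Rps6, against 3.60% of all probe sets. Rps6, the small subunit protein phosphorylated by S6 kinase, was 0.21 ± 0.05 higher (limma, adjusted p = 0.0391). In C57BL/6J its controls measured 6.56, 6.61 and 6.49 and its sleep-deprived arrays 6.74, 6.73 and 6.78. In AKR/J the values were 6.46, 6.68 and 6.54 in controls and 6.69, 6.82 and 6.69 after sleep deprivation. In DBA/2J they were 5.09, 5.23 and 4.92 against 5.29, 5.23 and 5.46. Sleep-deprived arrays thus lay above all controls in C57BL/6J and AKR/J, and in DBA/2J 1 of them equalled the highest control. By strain the difference was 0.19 for C57BL/6J, 0.17 for AKR/J and 0.25 for DBA/2J, none past the threshold alone. This call was weak: it did not pass under 20 of 27 alternatives, and over all 27 the estimate was 0.12 to 0.24 and the adjusted p 0.0203 to 0.1310. It was lost when any 1 liver array was left out other than AKR/J control 2, AKR/J sleep-deprived 1, DBA/2J control 2 or DBA/2J sleep-deprived 2, and without the liver array that stands apart (0.21, adjusted p = 0.0530). The probe set called had a liver mean of 6.17, where the members' median was 11.61. The other Rps6 probe set, with a liver mean of only 2.98, gave 0.03 (adjusted p = 0.9090). The 9 probe sets that list Rps6 with a pseudogene gave -0.06 to 0.07, with adjusted p of 0.6707 or more.

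The other liver members stayed close to 0. Changes ran from -0.11 to 0.23 with a median of -0.02, against -0.01 for all probe sets, and 45 of 50 intervals lay within 0.3 of 0. In liver 4 members had a mean below the median of all probe sets (4.1), where the same limit holds as in brain. Rpl14, a large subunit protein gene, had the largest estimate (0.23 ± 0.08, adjusted p = 0.1468), and Rpl3l, a form of Rpl3 known from muscle, followed with 0.14 ± 0.18. The Rpl3l value rested on 1 array, DBA/2J sleep-deprived 2, at 5.69 where the other arrays of its group measured 3.70 and 3.96. Without that array it was -0.06. The largest negative values were those of Rps16 (-0.11 ± 0.06), Rpl6 (-0.09 ± 0.05) and Rps19 (-0.08 ± 0.06). In unadjusted terms 2 members had a p under 0.05, against 15.5% of all probe sets.

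No member passed within a strain in liver. Of all probe sets 0.615% passed for C57BL/6J, 0.711% for AKR/J and 0.628% for DBA/2J, and 1, 1 and 3 members had an unadjusted p under 0.05 (limma). The nearest was Rpl14 in C57BL/6J, whose controls measured 4.65, 4.23 and 4.24 and whose sleep-deprived arrays measured 4.97, 5.10 and 4.83, a difference of 0.60 ± 0.14 (limma, adjusted p = 0.0660). The groups did not overlap. It passed under quantile normalization and without 1 of 3 single arrays: AKR/J sleep-deprived 1, C57BL/6J control 1 or DBA/2J control 3. In C57BL/6J brain the same probe set had gone the other way, from 5.70, 5.94 and 5.85 to 5.44, 5.36 and 5.42 (-0.42 ± 0.15, adjusted p = 0.9142), again without overlap. Neither difference passed. The 5 probe sets that list Rpl14 with a pseudogene gave mean changes between -0.12 and -0.07 (brain) and between -0.05 and 0.05 (liver).

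After Rpl14, the largest differences in C57BL/6J liver were Rps4l (0.23 ± 0.21) and Rps6 (0.19 ± 0.09) above controls and Rps16 (-0.18 ± 0.10), Rpl3l (-0.10 ± 0.31) and Rpl6 (-0.10 ± 0.09) below. In AKR/J they were Rps4l (0.33 ± 0.21), Rpl7l1 (0.21 ± 0.11) and Rplp2 (0.20 ± 0.09) above, and Rpl12 (-0.13 ± 0.18), Rpl6 (-0.09 ± 0.09) and Rps19 (-0.08 ± 0.10) below. In DBA/2J they were Rpl3l (0.39 ± 0.31), Rpl27a (0.27 ± 0.17) and Rps6 (0.25 ± 0.09) above, and Rps4l (-0.30 ± 0.21), Rps16 (-0.28 ± 0.10) and Rps25 (-0.27 ± 0.13) below. The medians were 0.01, 0.04 and -0.07 in the same order of strains, and in DBA/2J 42 of 50 members were below control. DBA/2J control 1, the liver array with a beta-actin difference of 2.16 against 0.96 to 1.45 on the others, was also the control on which members lay highest, at 0.11. Without it the DBA/2J median was -0.03. Its part in the low values was not tested further. The interaction with strain called 0 members, against 0.0333% of probe sets (smallest adjusted p 0.6338, for Rpl14), with 2 members at an unadjusted p under 0.05.

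The sleep deprivation effect was also compared directly between the tissues. No member passed (limma, 1.38% of all probe sets did), the smallest adjusted p was 0.2056, and 2 members had an unadjusted p under 0.05 against 12.0% of all probe sets. The largest differences, liver minus brain, were those of Rpl14 (0.33 ± 0.12), Rps6 (0.24 ± 0.09, adjusted p = 0.2343), Rpl37 (0.20 ± 0.12), Rps4l (0.20 ± 0.15) and Rpl27a (0.20 ± 0.15). On the other side stood Rps16 (-0.19 ± 0.11), Rps19bp1 (-0.10 ± 0.09) and Rpl7l1 (-0.08 ± 0.10).

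Averaged over both conditions, 7 of 50 members differed between strains in brain (limma F test, adjusted p under 0.05), against 6.69% of all probe sets, and 12 of 50 in liver, against 18.3%. The 7 brain genes were Rps4l, Rps6, Rps2, Rpl14, Rpsa, Rpl41 and Rps25. The 12 liver genes were Rps6, Rpl14, Rps19bp1, Rpsa, Rplp0, Rps4l, Rpl13a, Rps2, Rpl27a, Rps18, Rpl41 and Rpl7l1. Of these 6 were shared: Rpl14, Rpl41, Rps2, Rps4l, Rps6 and Rpsa. The other 37 members passed in neither tissue. How many of all probe sets passed in both tissues or in neither was not counted, so this overlap is not read as particular to the members. Without the arrays that stand apart the counts were 12 in brain and 12 in liver. Without AKR/J they were 5 and 7. The shares of all probe sets called in these other fits are not given here, so the changes in count are not read as particular to the members. The median difference over the 50 members was -0.03 to 0.02 for the pairs of strains, against -0.02 to 0.01 over all probe sets.

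**Figure D3:**
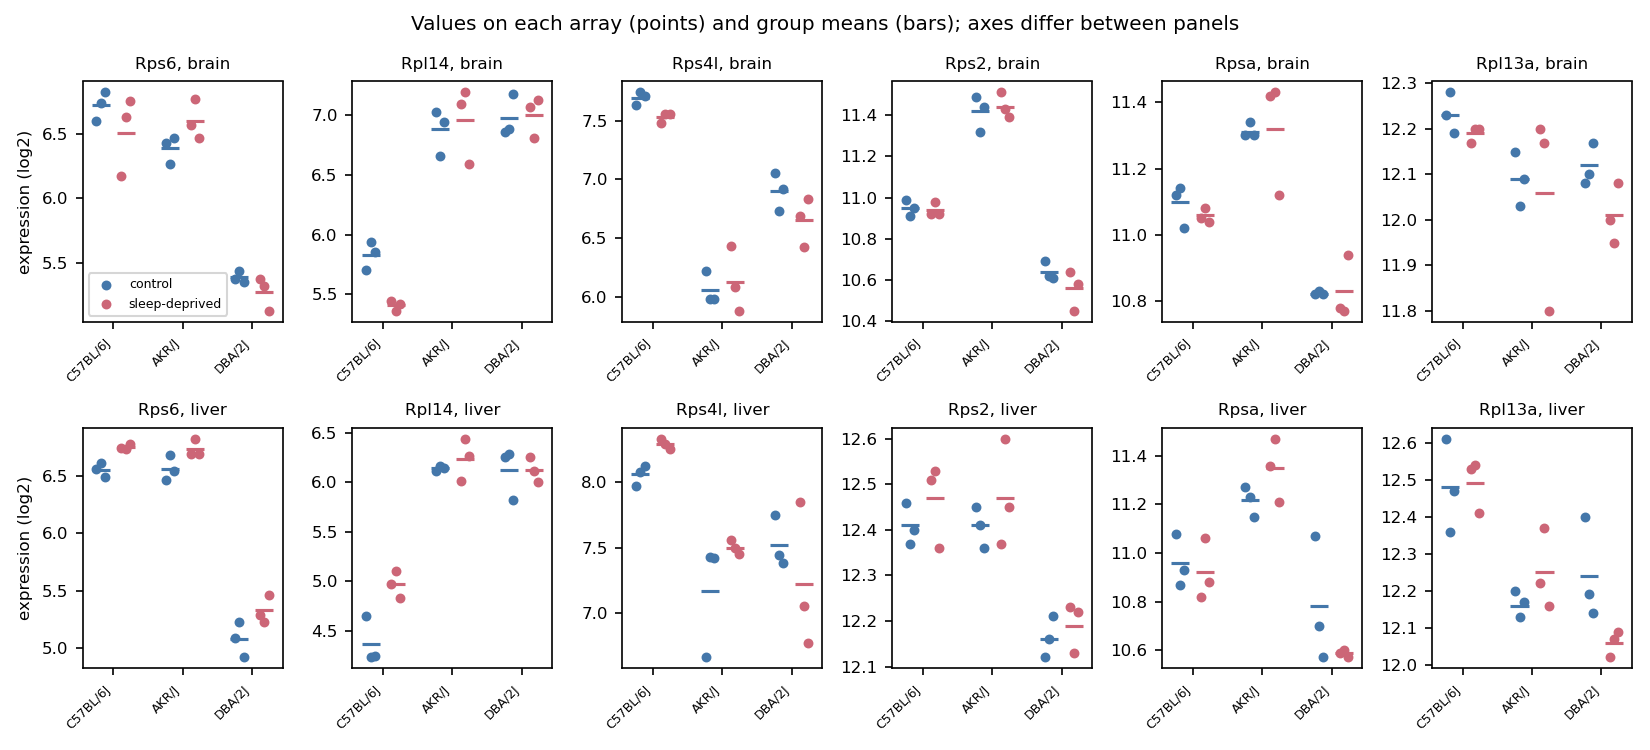
Log2 expression (y axis, which differs between panels) on every array for 6 genes, in brain (top) and liver (bottom), by strain (x axis) and condition (colour). Points are arrays and bars group means; Rps6 in DBA/2J and Rpl14 in C57BL/6J lie below the other strains on all arrays of both tissues.

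Rps6 was lower in DBA/2J. In brain the DBA/2J controls measured 5.38, 5.44 and 5.35 and the sleep-deprived arrays 5.38, 5.32 and 5.13, while C57BL/6J lay at 6.60, 6.74 and 6.82 and at 6.17, 6.63 and 6.75. AKR/J lay at 6.43, 6.27 and 6.47 and at 6.57, 6.77 and 6.47. All DBA/2J arrays were below all others. The difference from C57BL/6J was -1.28 ± 0.09 (2.44-fold lower, F test adjusted p = 3.389e-08), and AKR/J differed from C57BL/6J by -0.12. In liver DBA/2J was 1.45 ± 0.07 lower than C57BL/6J on the log2 scale (2.73-fold, adjusted p = 2.208e-12), again with no overlap, and AKR/J and C57BL/6J differed by 0.00. The size rests on 1 probe set. With the mean over both Rps6 probe sets DBA/2J differed by -0.79 in brain and -0.71 in liver, both past the threshold. The 9 probe sets that list Rps6 with a pseudogene gave differences from C57BL/6J of -0.08 to 0.03 in brain, with none past the threshold. In liver they gave -0.35 to 0.02, and 1 passed. The other Rps6 probe set differed by -0.29 in brain (adjusted p = 0.0141) and 0.02 in liver (adjusted p = 0.6469). That probe set had means of 3.38 in brain and 2.98 in liver, and changes near the lowest values are compressed. The probes were not compared with the sequences of the strains here, so a lower mRNA level and weaker binding of the probes in DBA/2J cannot be told apart.

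Rpl14 was lower in C57BL/6J. In brain the C57BL/6J arrays lay between 5.36 and 5.94, against 6.59 to 7.19 in AKR/J and 6.81 to 7.18 in DBA/2J. AKR/J was 1.30 ± 0.10 higher (2.46-fold) and DBA/2J 1.37 ± 0.10 higher (2.59-fold, adjusted p = 6.086e-08). In liver the C57BL/6J arrays lay between 4.23 and 5.10, against 6.01 to 6.44 and 5.82 to 6.29, with differences of 1.52 and 1.46 (2.87-fold and 2.74-fold, adjusted p = 7.409e-10). The strains did not overlap in either tissue. Other probe sets did not give this difference: the 5 that list Rpl14 with a pseudogene gave DBA/2J differences between -0.03 and 0.07 (brain) and between 0.13 and 0.21 (liver), none past the threshold. Here too the probes were not compared with the strains' sequences, and mRNA level and probe binding in C57BL/6J cannot be told apart.

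Rps2, a small subunit protein gene at the mRNA entry of the ribosome, differed on each of the 3 probe sets that list it. In brain AKR/J lay highest, at 11.49, 11.32 and 11.44 in controls and 11.51, 11.43 and 11.39 after sleep deprivation. C57BL/6J lay between 10.91 and 10.99 and DBA/2J between 10.45 and 10.69, so the 3 strains were separate. DBA/2J was 0.83 ± 0.05 below AKR/J (1.78-fold, adjusted p = 4.085e-08), and C57BL/6J lay 0.48 below AKR/J and 0.35 above DBA/2J. In liver only DBA/2J stood apart, at 12.12 to 12.23 against 12.36 to 12.60 on the arrays of the other strains (-0.26 ± 0.06 against both, adjusted p = 0.0028). The 2 probe sets that list Rps2 with pseudogenes gave DBA/2J minus AKR/J differences of -0.92 and -0.99 in brain and -0.27 and -0.33 in liver, all past the threshold by the F test (adjusted p = 1.555e-08, 1.979e-08, 0.0025 and 3.156e-04). The probe set of Rps2 alone carries the suffix x, so all 3 may bind the same other transcripts and are not independent. The probes of Rps2 were not compared with the strains' sequences, so mRNA level and probe binding cannot be told apart.

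**Figure D4:**
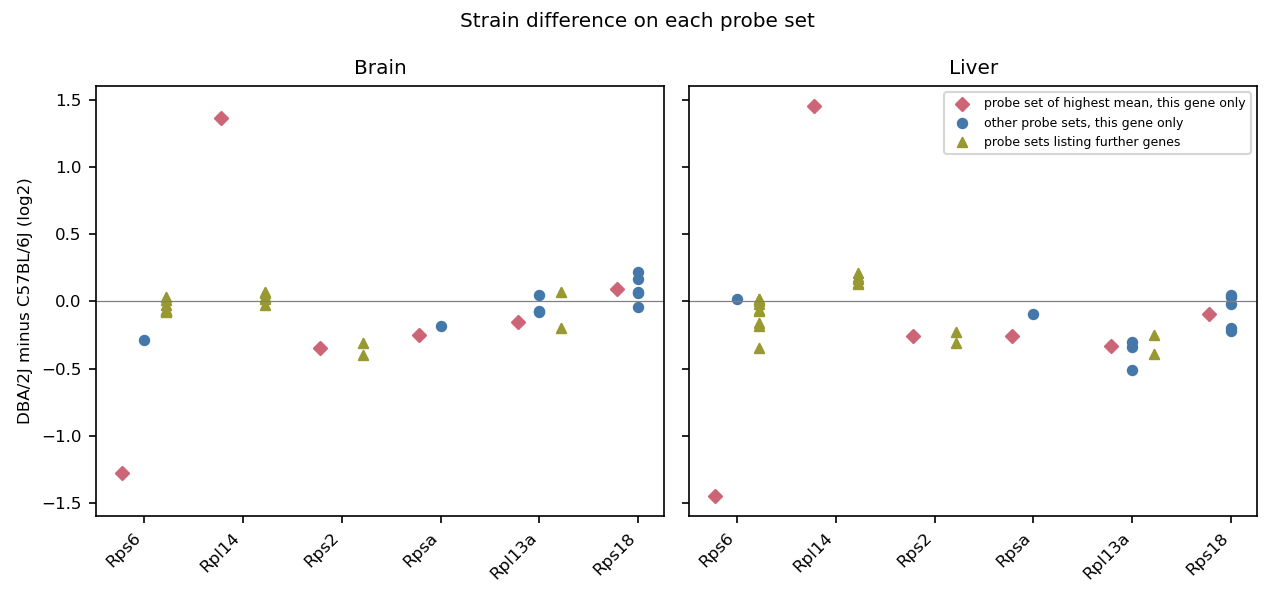
Difference of DBA/2J minus C57BL/6J (y axis, log2) on each probe set of 6 genes (x axis), in brain (left) and liver (right). Symbols separate the probe set that represents the gene, its other probe sets and probe sets that list further genes; the large differences of Rps6 (-1.28 and -1.45) and Rpl14 (1.37 and 1.46) are on 1 probe set each, while those of Rps2 lie between -0.40 and -0.23 on all 3 probe sets that list it.

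Rpsa, the small subunit protein also known as the laminin receptor precursor, followed the order AKR/J, C57BL/6J, DBA/2J in both tissues. In brain AKR/J measured 11.12 to 11.43, C57BL/6J 11.02 to 11.14 and DBA/2J 10.77 to 10.94, so DBA/2J was separate from both and the first 2 ranges overlapped at their ends. DBA/2J was 0.49 ± 0.06 below AKR/J (1.41-fold, adjusted p = 1.053e-04). In liver it was 0.60 ± 0.08 below AKR/J (1.51-fold, adjusted p = 7.001e-05). With AKR/J left out Rpsa did not pass in liver, so C57BL/6J and DBA/2J were not told apart there. There DBA/2J control 1, the array that stands apart, measured 11.07 where the other DBA/2J arrays measured 10.57 to 10.70. The other Rpsa probe set was dim, with means of 3.33 in brain and 3.06 in liver. It passed in brain (DBA/2J minus AKR/J -0.25, adjusted p = 0.0344) but not in liver (-0.09, adjusted p = 0.4605). With the mean over both probe sets the liver difference was -0.34 and passed.

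Rpl41, the gene of a very short basic protein of the large subunit, was higher in AKR/J than in C57BL/6J by 0.22 ± 0.05 in brain (adjusted p = 0.0286) and 0.21 ± 0.06 in liver (adjusted p = 0.0319). In brain AKR/J lay at 12.39 to 12.52 and C57BL/6J at 12.16 to 12.30. The brain call was lost without the AKR/J controls labelled ZT 0 (adjusted p = 0.2276), with the mean over its probe sets (adjusted p = 0.4949) and with the replicate number as a block (adjusted p = 0.05001). It was also lost without AKR/J control 1, 2 or 3, AKR/J sleep-deprived 1 or 2, C57BL/6J control 1 or 3, or C57BL/6J sleep-deprived 2 or 3 (estimates of 0.15 to 0.27 over 27 alternatives). The liver call was lost in 10 of 26 alternatives, among them without AKR/J control 1 or 3, AKR/J sleep-deprived 1 or 2, C57BL/6J control 2 or 3, C57BL/6J sleep-deprived 2 or DBA/2J sleep-deprived 2 (0.09, with the mean over its probe sets, to 0.25, adjusted p up to 0.2885). Of its 3 other probe sets none passed in either tissue. Their means were 12.07, 5.40 and 4.76 in brain and 11.95, 4.15 and 3.55 in liver, so the mean over probe sets includes dim ones.

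Rps25, a small subunit protein used in initiation at some internal ribosome entry sites, passed in brain, where DBA/2J was 0.38 ± 0.09 above AKR/J (adjusted p = 0.0406). AKR/J measured 5.87, 5.85 and 5.82 in controls and 5.69, 5.80 and 5.26 after sleep deprivation, and DBA/2J measured 6.00, 6.02 and 5.94 and then 6.38, 6.21 and 6.02. The strains did not overlap, but most of the distance lay in the sleep-deprived arrays (0.62 against 0.14 in controls). The call was lost in 15 of 27 alternatives (0.30 to 0.43, adjusted p up to 0.2330). The single arrays whose removal ended it were all 3 AKR/J controls, AKR/J sleep-deprived 1 and 3, C57BL/6J control 3 and sleep-deprived 3, all 3 DBA/2J controls, and DBA/2J sleep-deprived 1 and 2. The probe set that lists Rps25 with other genes gave 0.11 (adjusted p = 0.5250).

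The remaining liver differences were led by Rps19bp1, which was lower in C57BL/6J. Its C57BL/6J arrays measured 6.95 to 7.21, against 7.38 to 7.74 in AKR/J and 7.45 to 7.80 in DBA/2J, with no overlap (0.49 and 0.51 ± 0.07, adjusted p = 2.491e-05). No other probe set was annotated to Rps19bp1 alone. The probes of Rps19bp1 were not compared with the strains' sequences, so mRNA level and probe binding cannot be told apart. Rplp0, the base of the large subunit stalk that recruits the translation factors, was lower in DBA/2J, at 11.53 to 11.69 against 11.83 to 12.10 in C57BL/6J and 11.72 to 11.88 in AKR/J (-0.38 ± 0.06 from C57BL/6J, adjusted p = 3.400e-04). Rpl13a, a large subunit protein also known for translational silencing in inflammation, was highest in C57BL/6J. C57BL/6J measured 12.36 to 12.61, AKR/J 12.13 to 12.37 and DBA/2J 12.02 to 12.40, so the ranges overlapped at their ends (-0.33 ± 0.06 for DBA/2J, adjusted p = 0.0016). All 4 probe sets of Rpl13a alone passed in liver, with DBA/2J differences of -0.51 to -0.30, and none passed in brain.

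Rpl27a was 0.58 ± 0.12 higher in AKR/J than in C57BL/6J liver (adjusted p = 0.0052), with values of 6.06 to 6.49 against 5.17 to 5.93. The difference was 0.31 with the mean over its probe sets and did not pass without the AKR/J controls labelled ZT 0 (adjusted p = 0.0746). The other probe set of Rpl27a alone was dim, with a liver mean of 3.43. The probe set that lists Rpl27a with other genes gave 0.13 (adjusted p = 0.3870). Rps18 was 0.28 ± 0.06 lower in DBA/2J than in AKR/J (adjusted p = 0.0062), at 11.84 to 12.05 against 12.12 to 12.30, and 2 of its 5 other probe sets passed. With the mean over its probe sets it did not pass (-0.15, adjusted p = 0.10). That mean includes dim probe sets: the 5 others had liver means of 11.91, 11.19, 5.07, 3.13 and 2.97. Rpl7l1 was 0.24 ± 0.08 higher in AKR/J than in C57BL/6J and lay at the threshold (adjusted p = 0.04999), with the call lost in 20 of 26 alternatives (adjusted p 0.0098 to 0.2021). It was kept without AKR/J sleep-deprived 1, C57BL/6J control 1 or 2, or DBA/2J control 2, and was lost without any other single array of the 18.

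Across probe sets, 4 of the 56 other probe sets of members differed between strains in brain and 10 of 56 in liver, and so did 10 and 15 of the 110 that list several genes, against 6.69% and 18.3% of all probe sets. For sleep deprivation 0 of either kind passed in brain, and 0 of the 56 and 1 of the 110 in liver, against 1.73% and 3.60% (limma). In liver 6 of 8 macrophage markers also differed between strains, and their summed level was 10.11 to 10.57 in AKR/J, 10.97 to 11.34 in C57BL/6J and 10.71 to 11.54 in DBA/2J (log2). In brain the summed level of 7 pituitary hormone markers ran from 7.53 to 13.54 over the arrays, and was 7.77 to 7.92 in AKR/J controls and 10.27 to 11.80 in AKR/J sleep-deprived arrays. Of these pituitary markers 1 differed between strains, and 3 of 8 microglia and macrophage markers did in brain. So did 3 of 6 astrocyte markers (Gfap, Aqp4 and Slc1a2). The summed level over the list was 12.28 to 12.54 in AKR/J, 12.57 to 12.70 in C57BL/6J and 12.52 to 12.73 in DBA/2J. The astrocyte markers went different ways: AKR/J minus C57BL/6J was 0.27 for Gfap, -0.32 for Aqp4 and -0.45 for Slc1a2. It was 0.19 for Slc1a3 and 0.00 for Gja1 and Aldh1l1. The part of these cell type markers in the members' differences was not tested.

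The size of the strain difference was compared between tissues, a test added after the values above had been seen. It called 3 of 50 members, Rps2, Rps4l and Rps19bp1, against 9.70% of all probe sets. For Rps2, DBA/2J minus AKR/J was -0.83 in brain and -0.26 in liver, a difference of 0.57 ± 0.07 (limma F test, adjusted p = 1.261e-06). Its probe set had a mean of 10.99 in brain and 12.35 in liver, and the part of signal level in this difference was not tested. For Rps4l, AKR/J minus C57BL/6J was -1.52 in brain and -0.84 in liver, a difference of 0.68 ± 0.19 (adjusted p = 0.0179), which was 0.35 and did not pass without the AKR/J controls labelled ZT 0 (adjusted p = 0.6055). For Rps19bp1, DBA/2J minus C57BL/6J was 0.12 in brain and 0.51 in liver, a difference of 0.39 ± 0.10 (adjusted p = 0.0159). The differences of Rps6 and Rpl14 between tissues did not pass (adjusted p = 0.2620 and 0.6605), at -0.16 ± 0.11 for DBA/2J and 0.22 ± 0.15 for AKR/J, each against C57BL/6J.

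The paralogues were set beside their parent genes where both were measured. Rps4l, which RefSeq lists as a transcribed pseudogene, showed the largest strain differences of this group, while its parent Rps4x, the X-linked small subunit gene, did not differ. In brain Rps4l lay at 7.48 to 7.74 in C57BL/6J, 5.88 to 6.43 in AKR/J and 6.42 to 7.05 in DBA/2J, with AKR/J 2.86-fold below C57BL/6J (-1.52 ± 0.09, adjusted p = 1.936e-08). Rps4x differed there by -0.05 and -0.03 (adjusted p = 0.9279). In liver Rps4l lay at 7.97 to 8.33 in C57BL/6J, 6.66 to 7.56 in AKR/J and 6.77 to 7.85 in DBA/2J (-0.84 ± 0.15 for AKR/J, adjusted p = 4.473e-04), and Rps4x differed by -0.02 and 0.00. The C57BL/6J arrays lay above all others in both tissues. No other probe set was annotated to Rps4l alone. The probes of Rps4l were not compared with the strains' sequences, so mRNA level and probe binding cannot be told apart.

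For Rpl22 and Rpl22l1 the mean changes after sleep deprivation were -0.04 ± 0.06 and -0.11 ± 0.09 in brain and -0.05 ± 0.06 and -0.05 ± 0.08 in liver. For Rpl39 and Rpl39l, a form known from testis, they were -0.07 ± 0.06 and 0.06 ± 0.06 in brain and -0.03 ± 0.05 and 0.02 ± 0.05 in liver. The Rpl39l probe set measured 2.94 to 3.73 over all 36 arrays. For Rpl7 and Rpl7l1 they were -0.05 ± 0.06 and 0.19 ± 0.07 in brain and -0.03 ± 0.04 and 0.11 ± 0.06 in liver. For Rps27 and Rps27l, a target of p53, they were -0.05 ± 0.05 and -0.02 ± 0.09 in brain and -0.03 ± 0.04 and -0.03 ± 0.05 in liver. None of these passed, and none of these genes other than Rpl7l1 in liver differed between strains. The stalk genes Rplp0 and Rplp2 changed by -0.01 ± 0.06 and -0.03 ± 0.05 in brain and by -0.05 ± 0.05 and 0.05 ± 0.05 in liver after sleep deprivation, and Rpsa by -0.01 ± 0.05 and -0.04 ± 0.07, none past the threshold.

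Genes that make and regulate ribosomes were read from lists set up with earlier results of these data known. Over all probe sets, as given above, 1.73% passed for sleep deprivation in brain and 3.60% in liver. Among 22 measured translation factors and other 5′ TOP genes, 1 fell in brain, the initiation factor gene Eif4b (-0.19 ± 0.04, adjusted p = 0.0308), and 1 rose in liver, the intermediate filament gene Vim (0.54 ± 0.09, adjusted p = 0.0013). The list medians were -0.04 and 0.04. Of 52 ribosome biogenesis genes, 1 rose in brain, Ltv1, an assembly factor of the small subunit (0.23 ± 0.05, adjusted p = 0.0189), and 1 in liver, the nucleolar gene Nop16 (0.28 ± 0.05, adjusted p = 0.0033), with medians of -0.01 and 0.03. Of 15 RNA polymerase I genes none passed in brain. In liver Znrd1, a subunit gene, rose (0.31 ± 0.06, adjusted p = 0.0072) and Taf1b, of the promoter selectivity factor, fell (-0.39 ± 0.09, adjusted p = 0.0142). Of 26 genes that control ribosome synthesis none passed in brain. In liver Ddit4, an inhibitor of mTORC1, rose by 1.05 ± 0.15 (adjusted p = 3.640e-04), in a list with a median of 0.05.

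Between strains, 0 of the 22, 2 of the 52, 1 of the 15 and 3 of the 26 genes of these lists passed in brain, and 3, 18, 5 and 9 in liver, where over all probe sets 6.69% passed in brain and 18.3% in liver. In brain the largest were Utp18, of the small subunit processome, which was 1.27 higher in AKR/J than in C57BL/6J (F test adjusted p = 1.096e-05), and Deptor, an mTOR inhibitor, which was 1.02 and 0.97 lower in AKR/J and DBA/2J on the log2 scale (adjusted p = 2.289e-08). Polr1b was 0.27 lower in DBA/2J (adjusted p = 0.0217). In liver Utp18 was 0.72 higher in AKR/J (adjusted p = 6.235e-06), Polr1c was 0.36 and 0.40 higher in AKR/J and DBA/2J (adjusted p = 1.727e-04), and Mtor was 0.36 and 0.40 higher (adjusted p = 2.762e-04). Eif4ebp1, a translational repressor that mTORC1 inactivates, was 0.44 and 0.42 higher (adjusted p = 7.848e-06).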

How the data were processed

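RNA of pooled mice was measured on 36 Affymetrix arrays. The authors deposited log2 expression values that they had made with RMA, per the submitters' processing notes. For the version of RMA: not given in the sources used here. Changes of probe sets near the lowest values are compressed by the method. The values (2.12 to 14.91) were used without further normalization, and 64 of 45101 probe sets were left out as controls. Gene names came from the platform annotation, updated through a RefSeq table of GRCm38.p6.

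For each tissue a linear model with 6 groups was fitted to its 18 arrays (limma 3.58.1, R 4.3.3). A fit over 36 arrays compared the tissues. P-values are two-sided and adjusted over 45037 probe sets by the Benjamini-Hochberg method. Values after ± are standard errors, with 3 arrays per group. The fits were also run on simulated data with independent noise for each probe set, and the outcome is not given here. Shifts shared by the members of an array were not simulated. The members, gene lists and tests were chosen with earlier results of these data known.

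Named were the members called in a comparison (the 12 smallest p where more were called), or the 3 largest differences each way where none was, the paralogue pairs, the stalk genes, Rpsa, Rps6, Rps19bp1 and up to 4 called genes of each list. Alternatives covered centring, quantile normalization, dim probe sets, variance moderation, a replicate block, arrays and strains left out, and the mean of a gene's probe sets. The number of arrays limits the precision.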

Additional observations from a re-analysis of the deposited data

Results flagged for a closer look

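Rps2, Rps4l and Rps19bp1 differed between strains by unequal amounts in brain and liver, by a limma test of that difference over all 36 arrays. These were 3 of 50 members, against 9.70% of all probe sets, in a test added after the values had been seen. With AKR/J left out Rps19bp1 alone passed, and the contrasts given here for Rps2 and Rps4l could not be formed. The Rps2 probe set had a mean of 10.99 in brain and 12.35 in liver, and the part of signal level in its result was not tested. Liver minus brain, the difference was 0.57 for Rps2 (DBA/2J minus AKR/J), 0.68 for Rps4l (AKR/J minus C57BL/6J) and 0.39 for Rps19bp1 (DBA/2J minus C57BL/6J). Over the alternatives that kept both strains of the contrast these values were 0.54 to 0.60, 0.35 to 0.81 and 0.34 to 0.43. That of Rps4l did not pass without the AKR/J controls labelled ZT 0 (adjusted p = 0.6055).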

How the results depend on the processing

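Brain members called for sleep deprivation went from 0 to 1 under quantile normalization (Rpl7l1) and to 1 without the arrays that stand apart (Rps19bp1). In liver the call of Rps6 went from 1 to 0 under quantile normalization, trend and robust moderation, without the AKR/J controls labelled ZT 0, without the array that stands apart, with AKR/J left out and with the mean of a gene's probe sets, and it was 0 to 1 with single arrays left out. In C57BL/6J liver the count was 1 (Rpl14) under quantile normalization and 0 to 1 with single arrays left out. Brain strain calls were 12 without the arrays that stand apart, 11 without the 3 arrays of narrow spread (added after the data were seen) and 5 to 8 with single arrays left out. Liver strain calls were 7 with AKR/J left out and 10 to 13 with single arrays left out. The test between tissues gave 1 with AKR/J left out, 6 with the mean of a gene's probe sets and 3 to 4 with single arrays left out. The cause of these changes was not tested. The shares of all probe sets called in the same fits are not given here, so the changes are not read as particular to the members. Changes that had not passed turned sign in brain without the arrays that stand apart (Rps6 0.03, Rpl22l1 0.07, Rpl37 0.09, Rps16 -0.02) and without the 3 arrays of narrow spread (Rps6 0.03, Rpl22l1 0.03, Rps16 -0.05). Rps6 in brain also gave 0.01 with the mean of its probe sets and -0.08 to 0.02 with single arrays left out, and Rpl3l in liver gave -0.06 to 0.27. Without the ZT 0 controls 1 AKR/J control was left per tissue, assumed to vary like the other groups.

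The main fits did not pair arrays by replicate number. Same-numbered deviations had a median correlation of 0.11 in brain (23 of 45 pairs over 0.1) and 0.00 in liver (5 of 45). In brain the correlations ran from -0.56 to 0.61. Of 18 arrays per tissue, 9 in brain and 7 in liver correlated best on average with arrays of their own number. These values do not settle whether the brain arrays were paired. With the number as a replicate block, 0 members were called for sleep deprivation in brain and 1 in liver, and 6 and 12 for strain (Rpl41 was lost in brain, and in liver Rpl7l1 was lost and Rpl37 gained).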
